A study of Mus musculus with 12 samples.

Results

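Mapt, Thy1 and the microtubule-associated protein genes Map1a, Map1b, Map2, Map4 and Map6 were followed through 12 mouse cortex libraries. These are 7 of the 48526 genes in the deposited tables. They were chosen by name, each matched 1 row in both tables, and all 7 passed the filter on low values (a group mean of 1 FPKM or more in any group). RNA came from the cortex of untreated mice on a C57Bl/6 background. The mice were labelled either transgenic (TAU58/2) or non-transgenic, and were 3 or 10 months old. There were 3 animals in each of the 4 combinations, here called the 3-month control, 3-month transgenic, 10-month control and 10-month transgenic libraries. TAU58/2 mice carry human tau with the P301S mutation under a neuronal Thy1 promoter, in addition to their own Mapt gene. Values are FPKM, which divide fragments by transcript length and library size, so levels of different genes can be compared per length. The design asks how expression differs with the transgene at each age and with age.

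Tau, the product of Mapt, binds along microtubules, mainly in axons, and detaches and aggregates in frontotemporal dementia and Alzheimer's disease. Map2, concentrated in dendrites, and Map4, present in most cell types, belong to the same family and share its microtubule-binding repeats. Map1a and Map1b are large proteins that are cut into heavy and light chains, Map1b being prominent in growing axons and Map1a in mature neurons. Map6 protects neuronal microtubules against cold. Thy1 is a lipid-anchored surface protein of neurons, and its promoter is a common means to express transgenes in forebrain neurons.

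Microtubule-binding repeats of tau, Map2 and Map4 are shown because they are what the family shares, and the mutation carried by the transgene lies among them. Each repeat of tau ends in proline followed by 3 glycines, encoded by a codon that begins with CC and 3 codons that begin with GG, and P301S replaces the proline of the second of these motifs in human tau. The motif was searched in frame, on the coding strand, in the longest coding sequence of each gene (GENCODE M21, GRCm38). It occurred 4 times in Mapt, 3 times in Map4 and 2 times in Map2, and was not found in Map1a, Map1b, Map6 or Thy1. Of 21512 coding sequences, 2.2% held at least 1 copy and 0.0511% (11 genes) held at least 3. For a part of the copies, numbered in order along each coding sequence, the 54 bases that end with the motif are given 5′ to 3′, with the motif in capitals.
Mapt copy 1: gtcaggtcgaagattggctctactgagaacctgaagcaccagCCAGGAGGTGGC
Mapt copy 3: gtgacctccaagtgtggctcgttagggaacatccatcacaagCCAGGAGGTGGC
Map2 copy 1: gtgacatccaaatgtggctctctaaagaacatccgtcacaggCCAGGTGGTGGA
Map2 copy 2: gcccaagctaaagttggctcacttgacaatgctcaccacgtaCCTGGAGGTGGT
Map4 copy 1: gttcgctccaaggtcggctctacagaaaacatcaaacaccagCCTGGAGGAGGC
Map4 copy 2: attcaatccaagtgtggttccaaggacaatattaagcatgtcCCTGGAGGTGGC
Map4 copy 3: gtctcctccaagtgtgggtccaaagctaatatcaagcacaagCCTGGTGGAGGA

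All of these lie on the plus strand. Mapt copy 1 is at chr11:104310478-104310531 in exon 9 of the transcript used. Mapt copy 3 spans the junction of exons 11 and 12. Between genes, the closest pair was Map2 copy 1 and Mapt copy 3, with 44 of 54 bases the same (81.5%). Mapt copy 1 and Map4 copy 1 shared 41 of 54 (75.9%). Despite this likeness no 31-base word of the longest Mapt, Map4 or Thy1 transcript occurred in a transcript of another gene. For Map2, 0.58% of its words occurred elsewhere, all in an antisense gene, Gm10558, that was listed at 0 FPKM in every library. For Map1a the share was 2.17%, most of it with Ppip5k1, which overlaps the end of Map1a on the opposite strand and was at 0.314 to 4.07 FPKM.

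Some facts of the libraries bear on these genes. Low values of genes with a single annotated transcript mostly fell on steps in each library. If a step is 1 fragment, the libraries held between 11300000 and 15600000 fragments. The lowest value of any of the 7 genes then rested on about 136 fragments (Map2 in the 10-month transgenic 3 library, at its longest transcript). The step was searched only within a range fixed beforehand, which also bounds the depth read from it. Halved steps were accepted, so a fragment may be less than a step, and these figures are no measurement of depth. Cortical neuron markers were present throughout, while other lists varied more. The summed level of 6 excitatory neuron genes, led by Slc17a7, ranged from 215 to 377 FPKM and that of 7 pan-neuronal genes from 561 to 892 FPKM, while 5 T cell genes, which matter because T cells also express Thy1, summed to at most 0.1998 FPKM, with 2 of them at 0 in every library. In bulk tissue, fewer cells of a type and less RNA per cell cannot be told apart. The 10-month transgenic 1 library held 11230 FPKM of the pituitary hormone gene Gh, against at most 37.4 FPKM elsewhere. Inhibitory neuron genes summed to between 67.6 and 579 FPKM and astrocyte genes to between 104 and 337 FPKM. The choroid plexus gene Ttr was at 728 FPKM in 3-month control 1, 439 in 10-month transgenic 1, 300.4 in 3-month transgenic 3 and at most 63.5 FPKM elsewhere. The part of these differences in the results was not tested.

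In some libraries the level of genes varied with transcript length. Differences of the microtubule-associated protein genes with this trend removed are given below. Whether the trend underlies the values of the 7 genes was not tested. In the 10-month transgenic 3 library, 129 genes with an annotated transcript over 7500 bases were at a median of -1.02 (log2) from their own median over all libraries, while 423 genes of up to 1000 bases were at 0.52. The 3-month transgenic 1 library showed a smaller slope of the same direction (-0.24 in the longest class and 0.16 in the shortest), the 10-month control 1 library went from 0.18 in the shortest to -0.03 in the longest class, and the 3-month control 1 library from 0.04 to -0.16. In the other 8 libraries the longest class was between -0.04 and 0.17. Some of these sloped the other way. The 10-month transgenic 2 library went from -0.21 in the shortest to 0.17 in the longest class. The 10-month control 3 library went from -0.18 to 0.10, and 3-month control 2 from -0.06 to 0.07. The longest annotated transcripts of Map1a and Map1b have 11825 and 11808 bases, those of Map2, Map4, Mapt and Map6 between 4920 and 6258, and that of Thy1 1735. The 10-month transgenic 3 library held the lowest of the 12 values for Mapt, Map1a, Map1b and Map2, at -1.85, -1.84, -2.39 and -2.47 from the gene's median on the log2 scale. Each of these 4 deviations lay below the median of its length class, which was -0.25 for 5000 to 7500 bases. Map6 was at -1.05 in the same library, where its class of 3000 to 5000 bases had a median of 0.01. Map4, of similar length to Map2, was at 0.07 and Thy1 at -0.05.

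**Figure D1:**
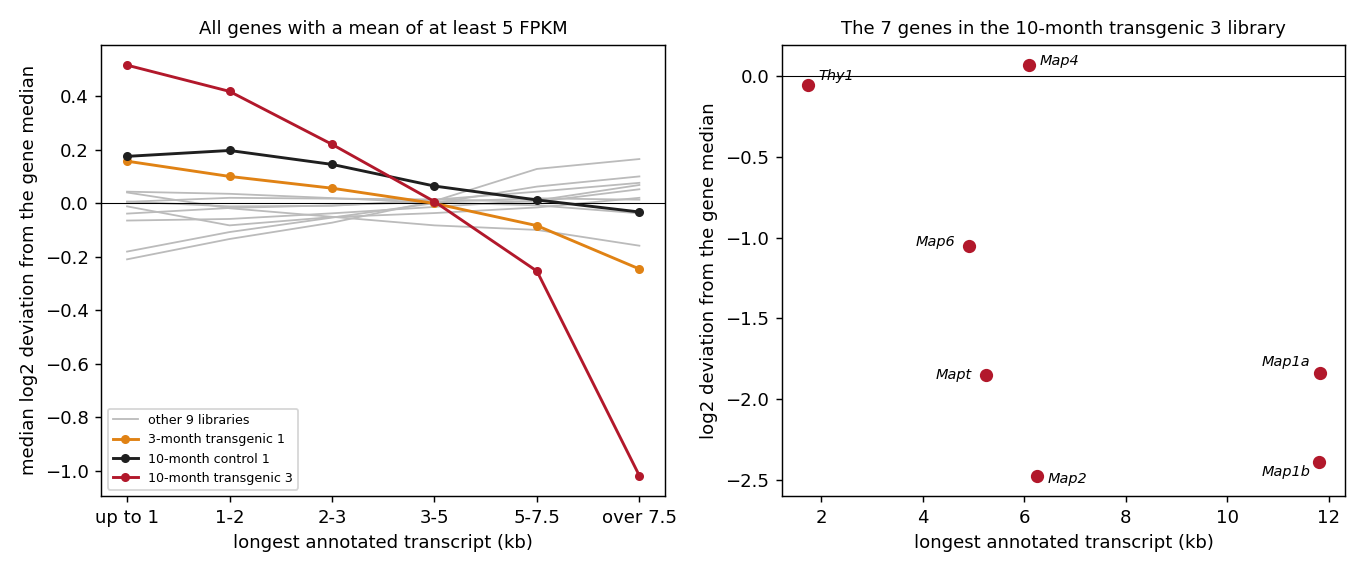
Left, the median log2 deviation of each library from the gene medians (y) by class of longest annotated transcript in kb (x), over genes averaging 5 FPKM or more; each line is 1 library. Right, the deviation of the 7 genes in the 10-month transgenic 3 library against transcript length. That library falls to -1.02 for transcripts over 7.5 kb, and Map1a, Map1b, Map2 and Mapt lie lower still, Map6 lies at -1.05, and Map4 and Thy1 lie near 0.

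Thy1 was the most abundant of the 7 genes and Map4 the least. Over the 12 libraries the mean was 223 FPKM for Thy1, 81.4 for Map1a, 34.04 for Map1b, 23.6 for Mapt, 9.63 for Map2, 5.65 for Map6 and 4.49 for Map4. The range of Thy1 lay wholly above that of Map1a, and Map1a was above Map1b in each of the 12 libraries. Further down the order neighbours overlapped. Map1b exceeded Mapt in 9 of 12 libraries, Mapt exceeded Map2 in 7, Map2 exceeded Map6 in 9 and Map6 exceeded Map4 in 9. The residual SD within groups was 1.16 on the log2 scale for Map1b, 1.15 for Mapt and 0.98 for Map2, between 0.39 and 0.59 for the other 4, and 0.475 at the median of 4534 genes that averaged 5 FPKM or more (0.192 at the 10th and 1.91 at the 90th percentile).

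**Figure D2:**
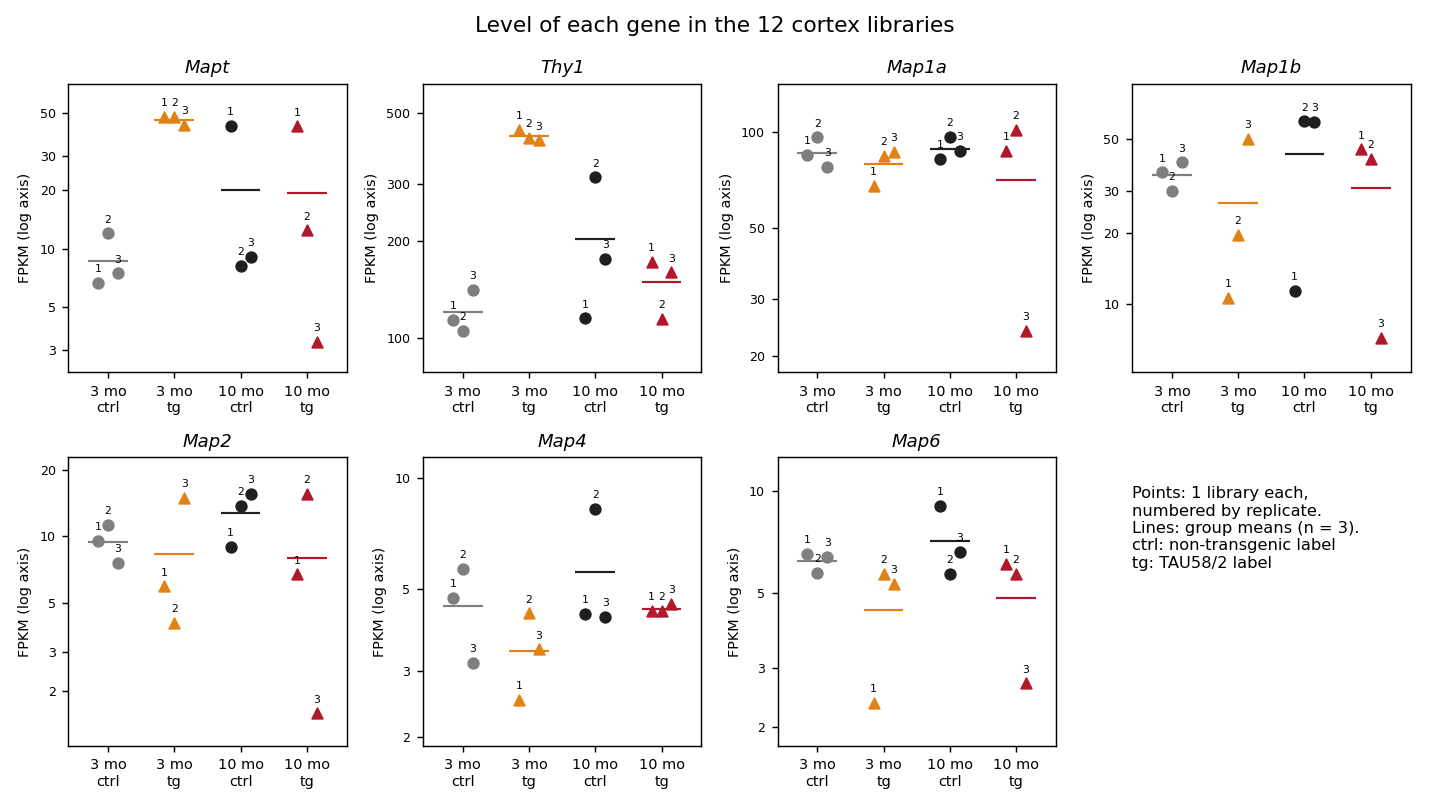
FPKM (y, log axis) of each gene in the 4 groups (x); points are libraries numbered by replicate and lines are group means, n = 3. Mapt and Thy1 are separated by genotype label at 3 months, and in the 10-month transgenic group replicate 3 is the lowest point for Mapt, Map1a, Map1b, Map2 and Map6.

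Mapt (ENSMUSG00000018411, chromosome 11, 104231390 to 104332090, plus strand) reports on the transgene only as far as fragments of human tau were counted under the mouse gene. At 3 months the libraries labelled transgenic held 47.6, 47.5 and 43.3 FPKM, and the controls 6.64, 12.0 and 7.47 FPKM. The groups did not overlap, and the ratio of means was 5.30. At 10 months its level by replicate was 42.6, 12.4 and 3.31 FPKM under the transgenic label, and 42.7, 8.13 and 9.08 FPKM under the control label. The library labelled 10-month control 1 was thus at the level of the 3-month transgenic libraries, and the libraries labelled 10-month transgenic 2 and 3 were near or under the level of controls. Over the whole study, Mapt took values in 2 separate ranges, 42.6 to 47.6 FPKM in 5 libraries and 3.31 to 12.4 FPKM in the other 7, with none between. How gene-level FPKM were summed over transcripts is not stated in the sources used here, and other genes, Phyhip among them, also took 2 separate levels. Whether the 10-month labels or the FPKM estimates underlie the Mapt levels was not tested, so the 10-month differences by label carry that doubt.

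Thy1 (ENSMUSG00000032011, chromosome 9, 44043384 to 44048579, plus strand) separated the same groups at 3 months. Its level was 440.5, 417 and 410 FPKM under the transgenic label, and 114, 105 and 140.5 FPKM under the control label. The groups did not overlap and the ratio of means was 3.53. At 10 months the libraries labelled transgenic held 172, 114 and 159 FPKM and those labelled control 115, 314 and 176 FPKM. No 10-month library reached the 3-month transgenic values, and the highest of them carried the control label.

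Mapt and Thy1 were high together in the 3-month transgenic libraries and in no 10-month library. In the 3-month transgenic libraries Mapt stood at 10.6% to 11.4% of the Thy1 level. That share was not particular to them, as 3-month control 2 was at 11.4% and 10-month transgenic 2 at 10.9%, with both genes lower. The 3-month control 1 and 3 libraries were at 5.84% and 5.31%, 10-month control 3 at 5.16% and 10-month transgenic 3 at 2.08%. In the 10-month control 1 library Mapt was high and Thy1 low, with a share of 37.3%, and in the 10-month control 2 library the opposite held, with a share of 2.59%. The 10-month transgenic 1 library had high Mapt (42.6 FPKM) with Thy1 at 172 FPKM, a share of 24.8%. Genotype differences at 10 months are given by label, which the levels of these genes did not follow.

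**Figure D3:**
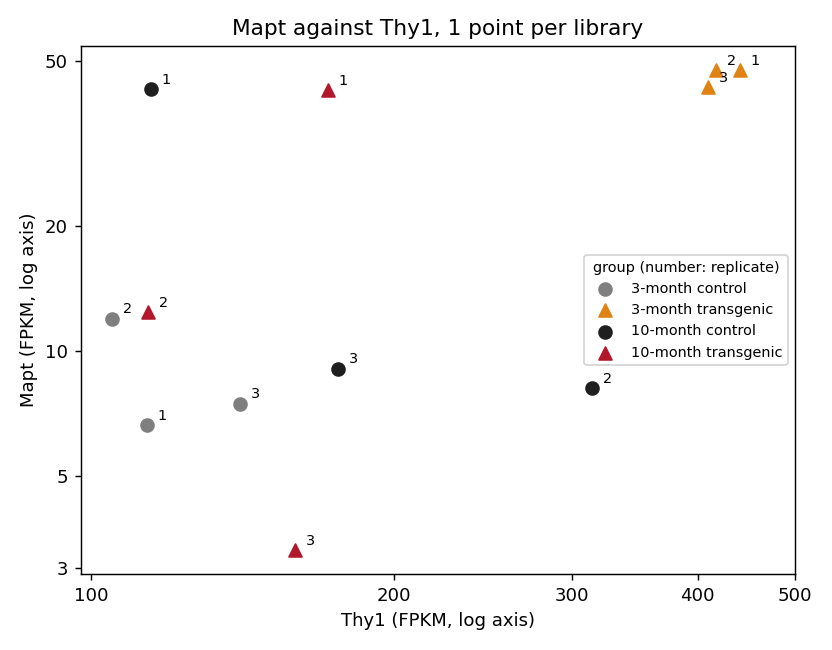
Mapt (y) against Thy1 (x), both in FPKM on log axes; each point is 1 library, numbered by replicate. The 3-month transgenic libraries stand alone at the upper right, and the 10-month control 1 and transgenic 1 libraries have similar Mapt with Thy1 of 115 and 172 FPKM.

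In the fit over all genes, 0 of the 7 genes passed the threshold for the genotype effect at 3 months (limma adjusted p under 0.05 over 9846 genes, which 0.0406% of all genes passed). At an unadjusted p under 0.05 there were 2 of the 7, Mapt and Thy1 (3.39% of all genes). The log2 difference was 1.83 for Thy1 (SE 0.32, limma adjusted p = 0.270) and 2.44 for Mapt (SE 0.85, limma adjusted p = 1). Both were higher in all 3 libraries labelled transgenic than in any control, as were 4.44% of all genes, and the two-sided exact permutation p was 0.1 for each, the smallest that 3 against 3 libraries allow. The call for Thy1 depended on 10-month libraries, which enter the estimate of spread. Thy1 passed with only the 6 libraries of 3 months (SE 0.145, limma adjusted p = 0.0267), when 14 of all genes passed. It also passed without the 10-month control 2 library (limma adjusted p = 0.0339), when 5 of all genes passed. In the fit reported, 4 of all genes passed. Mapt came to a limma adjusted p of 0.055 with only the 3-month libraries. In the authors' deposited table the 3-month log2 fold change was 2.18 for Mapt (q = 0.404) and 1.87 for Thy1 (q = 0.422).

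At 10 months 0 of the 7 genes passed (0.0102% of all genes did), and 0 had an unadjusted p under 0.05 (4.4% of all genes). None of the 7 was higher or lower without overlap, against 4.37% and 3.89% of all genes. For Mapt the log2 difference was -0.28 (SE 0.85, exact permutation p = 0.9, limma adjusted p = 1). For Thy1 it was -0.34 (SE 0.32, exact permutation p = 0.4, limma adjusted p = 0.969). Leaving out the 10-month control 1 library gave 0.49 for Mapt, leaving out transgenic 3 gave 0.64, and leaving out control 2 gave 0.04 for Thy1, each of the opposite sign. The lowest values with a library left out were -1.18 for Mapt, without 10-month transgenic 1, and -0.69 for Thy1. The authors' deposited table gives a 10-month log2 fold change of 0.34 for Mapt (q = 0.934) and -0.33 for Thy1 (q = 0.894), so the sign for Mapt there is the opposite. The interaction, the 10-month minus the 3-month genotype difference, was -2.17 for Thy1 (SE 0.45, limma adjusted p = 0.62) and -2.72 for Mapt (SE 1.2, limma adjusted p = 0.987). It passed for 0 of the 7 genes and for 0.0508% of all genes. At an unadjusted p under 0.05 there were 2 of the 7, again Mapt and Thy1 (3.32% of all genes), and 5 of the 7 were negative (51.1% of all genes).

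The 4 genes beside Mapt and Thy1 overlapped between labels at 3 months. Crhr1, a corticotropin-releasing hormone receptor gene and the nearest tested named gene before Mapt, had a 3-month log2 difference of -0.20 (SE 0.44). Kansl1, a chromatin regulator gene after Mapt, was at 0.35 (SE 1.64). Nectin1, a cell adhesion gene before Thy1, was at 0.17 (SE 0.85), and Usp2, a deubiquitinase gene after Thy1, at -0.27 (SE 0.25). Each had a limma adjusted p of 1 at 3 months. At 10 months they were at -0.47, 0.96, -1.2 and -0.34, with limma adjusted p of 0.969, 0.994, 0.969 and 0.969. Crhr1 was then lower without overlap, at 7.43, 6.34 and 4.47 FPKM under the transgenic label and 8.39, 7.87 and 8.62 FPKM under the control label, and the other 3 genes overlapped.

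The 5 other microtubule-associated protein genes had negative genotype differences at both ages, and none passed the test. The median over the 5 was -0.39 at 3 months, when 47.5% of all genes were negative and the median over all genes was 0.02. At 10 months it was -0.57, against 48.8% negative and a median of 0.01. All 5 were also negative at both ages in the authors' deposited table. The trend against transcript length was also removed, an alternative chosen after seeing the data. The 3-month differences were then -0.11 for Map1a, -0.67 for Map1b, -0.39 for Map2, -0.39 for Map4 and -0.58 for Map6. Before, they were -0.12, -0.68, -0.39, -0.39 and -0.56. The 10-month differences were -0.40, -0.35, -1.02, -0.13 and -0.54 in the same order. All of these were smaller in size than before (-0.57, -0.52, -1.15, -0.25 and -0.61). The groups overlapped at both ages for 4 of the 5 genes, and Map6 was lower without overlap at 3 months (3.54% of all genes were).

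Map2 (chromosome 1, 66175273 to 66442583, plus strand), the dendritic member of the tau family, was at 5.94, 4.05 and 14.99 FPKM in the 3-month libraries labelled transgenic and 9.53, 11.3 and 7.59 FPKM in controls. At 10 months it was at 6.72, 15.6 and 1.58 FPKM against 8.97, 13.7 and 15.6 FPKM. The highest value of its age group was in a library labelled transgenic at 3 months, and the lowest of all 12 in the 10-month transgenic 3 library. Its log2 differences were -0.39 (SE 0.73) at 3 months and -1.15 (SE 0.73, limma adjusted p = 0.969) at 10 months. The 3-month value was 0.01 without the 3-month transgenic 2 library, and the 10-month value -0.28 without the 10-month transgenic 3 library.

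Map4 (chromosome 9, 109931460 to 110083955, plus strand), the family member found in most cell types, was at 2.51, 4.30 and 3.44 FPKM in the 3-month libraries labelled transgenic and 4.73, 5.66 and 3.16 FPKM in controls. At 10 months its values in the libraries labelled transgenic were nearly alike, at 4.37, 4.37 and 4.55 FPKM, against 4.30, 8.21 and 4.22 FPKM in controls. The groups overlapped at both ages. The log2 differences were -0.39 (SE 0.34) and -0.25 (SE 0.34), and the 10-month value turned to 0.06 without the 10-month control 2 library, which held the highest Map4 of the study.

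Map1a (chromosome 2, 121289600 to 121310832, plus strand), the form of mature neurons, lay between 68.0 and 101.5 FPKM in 11 libraries and at 23.9 FPKM in the 10-month transgenic 3 library. At 3 months its level was 68.0, 84.2 and 86.5 FPKM under the transgenic label, and 84.9, 96.3 and 77.9 FPKM under the control label. At 10 months it was at 87.4, 101.5 and 23.9 FPKM against 82.3, 96.9 and 87.3 FPKM. The 10-month log2 difference of -0.57 (SE 0.44, limma adjusted p = 0.969) was 0.09 without the 10-month transgenic 3 library (SE 0.17), and the 3-month difference was -0.12 (SE 0.44).

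Map1b (chromosome 13, 99421446 to 99516540, minus strand), the form of growing axons, varied over 8.28 times between libraries. It was at 10.6, 19.6 and 49.8 FPKM in the 3-month libraries labelled transgenic and 36.0, 30.04 and 39.7 FPKM in controls, and at 45.0, 41.0 and 7.15 FPKM against 11.3, 59.2 and 58.9 FPKM at 10 months. Its 3 lowest values were in the 10-month transgenic 3, 3-month transgenic 1 and 10-month control 1 libraries. The class of transcripts over 7500 bases had medians of -1.02, -0.24 and -0.03 in these libraries. That class was at -0.16 in 3-month control 1, where Map1b was at 36.0 FPKM. Whether transcript length bears on the Map1b values was not tested. The log2 differences were -0.68 (SE 0.86) at 3 months and -0.52 (SE 0.86) at 10 months. Without the 3-month transgenic 1 library the former was -0.16, and without the 10-month transgenic 3 library the latter was 0.33.

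Map6 (chromosome 7, 99267447 to 99337137, plus strand), the cold-stability factor, was at 2.36, 5.70 and 5.31 FPKM in the 3-month libraries labelled transgenic and 6.52, 5.71 and 6.38 FPKM in controls. At 10 months it was at 6.07, 5.68 and 2.70 FPKM against 9.03, 5.70 and 6.61 FPKM. The nearest values of the 3-month groups were 5.699 and 5.706 FPKM, so the separation of Map6 there is slight. The lowest values were again in the 3-month transgenic 1 and 10-month transgenic 3 libraries. The log2 differences were -0.56 (SE 0.40, limma adjusted p = 1) and -0.61 (SE 0.40, limma adjusted p = 0.969), and -0.17 and -0.25 without these libraries.

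**Figure D4:**
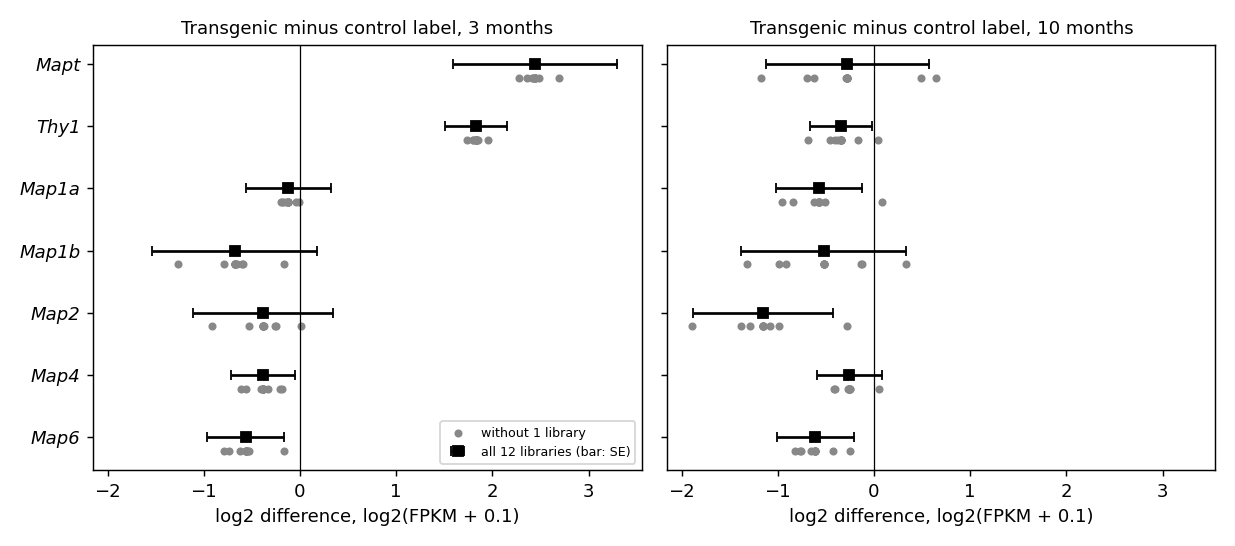
Log2 difference between libraries labelled transgenic and control (x, on the log2(FPKM + 0.1) scale) for each gene (y) at 3 months (left) and 10 months (right); squares with bars are estimates with SE from all 12 libraries, grey points the estimates without 1 library. At 3 months Mapt (2.44) and Thy1 (1.83) lie far to the right of the other 5 genes, and at 10 months all 7 estimates are under 0 with bars or grey points crossing 0 for all but Map2 and Map6.

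With age, 0 of the 7 genes passed in the controls (0.0305% of all genes did) and 0 in the libraries labelled transgenic (0.0203%). At an unadjusted p under 0.05 there were 0 of the 7 in controls (4.19% of all genes) and 2, Mapt and Thy1, in transgenics (4.31%). In transgenics 4 of the 7 differences were negative (45.8% of all genes), and in controls 1 (43.6%). Age coincides with the deposited table, so an age difference and a difference between the tables cannot be told apart. In the libraries labelled transgenic, Thy1 was lower at 10 than at 3 months by label, without overlap, at a log2 difference of -1.53 (SE 0.32, limma adjusted p = 0.477). Mapt was likewise lower without overlap, at -1.92 (SE 0.85, limma adjusted p = 0.974), as were 3.65% of all genes. The value for Mapt was -0.998 without the 10-month transgenic 3 library, -2.82 without transgenic 1 and -1.20 with library weights. Map4 was higher without overlap (0.40, SE 0.34), as were 5.78% of all genes. The nearest values of Map4 were 4.302 FPKM at 3 months and 4.369 FPKM at 10 months, so this separation is slight. In the controls all 7 genes overlapped between ages (6.8% of all genes were higher and 3.25% lower without overlap), with log2 differences of 0.64 for Thy1 (SE 0.32), 0.80 for Mapt (SE 0.85) and between -0.04 and 0.41 for the other 5 genes. Without the 10-month control 1 library the value for Mapt was 0.03, and 1.22 without control 2, while that for Thy1 was 0.99 without control 1 and 0.26 without control 2.

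Among the genes whose levels followed Mapt most closely over the 12 libraries, out of 4533 others averaging 5 FPKM or more, were Extl3 (Pearson r = 0.878 on the log2 scale), Nacc2 (0.867), Stk40 (0.811) and Phyhip (0.803). These are descriptions, picked as the highest of many, and the libraries share ages and labels. Extl3, a heparan sulfate synthesis enzyme, was at 12.04, 18.2 and 11.4 FPKM in the 3-month transgenic libraries and at 23.4 FPKM in the 10-month control 1 library, but at 7.48 FPKM in the 10-month transgenic 1 library. Phyhip, a brain protein gene, was at 149.9 to 170.9 FPKM in 6 libraries, among them the 5 with high Mapt, and at 7.81 to 31.9 FPKM in the other 6. For Thy1 the closest were the predicted gene Gm9493 (0.851), Agap2 (0.801), Id2 (0.784), Yaf2 (0.750) and Srsf7 (0.749). Gm9493 was at 23.1, 18.4 and 19.5 FPKM in the 3-month transgenic libraries and listed at 0 in all others. Its r thus rests on that split and says nothing of Thy1 among the remaining libraries. Agap2, a GTPase regulator of neurons, was at 166, 160 and 179 FPKM in the 3-month transgenic libraries and between 112 and 154 FPKM in all others. Between Mapt and Thy1 themselves r was 0.495.

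Of 87 other genes that act on tau or microtubules, 72 were tested, and 0 passed for the genotype effect at either age. At an unadjusted p under 0.05 there were 2 at 3 months and 4 at 10 months, against 3.39% and 4.4% of all genes. Among 18 tested proteins of microtubule ends, growth and lattice, 11 differences were positive and 7 negative at 3 months (median 0.09), and 8 and 10 at 10 months (median -0.13). Of all genes, 47.5% were negative at 3 months and 48.8% at 10 months. Dclk1, a doublecortin-like kinase, stayed between 20.6 and 37.5 FPKM in all libraries, while Dcx, the doublecortin of young neurons, was listed at 0 in 10 of them. The end-binding gene Mapre1 was at 2.65 ± 0.458 against 2.46 ± 0.214 FPKM at 3 months (SD, n = 3), and Mapre3, its neuronal relative, at 24.2 ± 14.6 against 31.8 ± 15 FPKM (SD, n = 3). Camsap2, which caps minus ends, was at a log2 difference of 0.02 at 3 months and -1.02 at 10 months (SE 1.09 each). The 10-month value rests on 1 library, as Camsap2 was at 6.25, 8.48 and 0.155 FPKM under the transgenic label. Controls of that age held 5.74, 3.46 and 5.42 FPKM. The lattice binder Map7d1 was at -0.38 and 0.19 (SE 0.29 each) and Map9 at 0.23 and 0.29 (SE 0.38 each). Clip2, a plus-end linker, had the smallest p of the list at 3 months, at 24.8 ± 4.2 against 16.5 ± 0.205 FPKM (SD, n = 3; log2 difference 0.57, SE 0.20, limma adjusted p = 1).

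Of 8 destabilizing and severing proteins, 7 were positive at 3 months (median 0.28) and 6 at 10 months (median 0.27). Over all genes, 47.5% were negative at 3 months and 48.8% at 10 months, and this small list was not tested as a set. Stmn1, a stathmin that sequesters tubulin, was at 304.5 ± 31.3 against 230.9 ± 109 FPKM at 3 months and 298 ± 72.7 against 249 ± 67.5 FPKM at 10 months (SD, n = 3). Stmn2, its form in neurons and axons, differed by 0.04 (SE 0.26) and 0.01 (SE 0.26). Stmn3 had the smallest p of the list at 10 months, at 417, 397 and 676 FPKM against 302, 193 and 174 FPKM, with no overlap between the groups (log2 difference 1.16, SE 0.43, limma adjusted p = 0.969). The highest of these was in the 10-month transgenic 3 library. The severing enzyme Spast was at 0.90 and 0.44 (SE 0.66 each) and Katna1, the catalytic subunit of katanin, at 0.27 and -1.63 (SE 0.95 each), with limma adjusted p of 0.969 or more. Spast was highest in the 3-month and 10-month transgenic 2 libraries (3.30 and 4.4 FPKM). The 10-month value of Katna1 rests on 1 library, at 0.0376, 2.60 and 2.50 FPKM under the transgenic label. Controls of that age held 3.04, 3.07 and 2.77 FPKM of Katna1.

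Of 16 tested genes of the tau kinase list, 9 were negative at 3 months and 12 at 10 months (medians -0.01 and -0.26), against 47.5% and 48.8% of all genes. The list includes Cdk5r1, an activator of the kinase Cdk5, while Cdk5 itself did not pass the filter on low values. Gsk3b was at -0.32 (SE 0.53) and -0.51 (SE 0.53), and its lowest value, 2.77 FPKM, was in the 10-month transgenic 3 library against 5.53 to 14.2 FPKM elsewhere. Fyn, a Src-family kinase that binds tau, was at -0.28 and -0.31 (SE 0.29 each), and Mark2, which phosphorylates the repeats, at -0.23 and -0.22 (SE 0.35 each). Mark1 had the smallest p of the kinases at 3 months, at 8.95 ± 0.918 against 6.39 ± 0.870 FPKM (SD, n = 3; log2 difference 0.48, SE 0.19, limma adjusted p = 1). Among 18 phosphatase and turnover genes, 8 were negative at 3 months and 11 at 10 months, against the same 47.5% and 48.8%. Ppp2ca, the catalytic subunit of the main tau phosphatase, was at -0.30 and -0.43 (SE 0.41 each), and Ppp2r2a, one of its regulatory subunits, at 0.07 and -0.74 (SE 0.26 each, limma adjusted p = 0.969 at 10 months). The tubulin modifying enzymes were 6 positive and 6 negative at both ages. Atat1, which acetylates tubulin, was at 0.50 and 0.27 (SE 0.47 each), and Hdac6, which removes the acetyl group, at 0.03 and -0.51 (SE 0.83 each). Ttl, which adds tyrosine back to tubulin, was at 3.58, 2.90 and 10.4 FPKM against 13.0, 11.3 and 11.6 FPKM at 10 months (log2 difference -1.30, SE 0.41, limma adjusted p = 0.969).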

How the data were processed

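Per the labels' protocols, cortex RNA was made into strand-specific libraries after ribosomal RNA depletion. The submitters' processing notes name mm10 and GRCm38 and the tools StringTie 1.3.0, HISAT2 2.0.4, SAMtools 0.0.19 and R 3.4.2. The annotation, options and use of strand in counting were not given in the sources used here. In a table per age, the authors deposited FPKM per gene and library, with a fold change (ratio), its log2 value, p-values and q-values, per the file headers; their test is not stated. Library columns were matched by the sample number in the labels.

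FPKM were analysed as log2(FPKM + 0.1), which understates changes of low genes. Genes with a group mean of at least 1 FPKM (9846) were fitted over the 12 libraries together (R 4.3.3, limma 3.58.1, eBayes with trend and robust), 1 mean per group, with Benjamini-Hochberg adjustment over all genes and a threshold of 0.05. Both tables entered this fit on the untested assumption that no scaling was applied within a table. The script was tested on simulated data. Transcript lengths and coordinates are from GENCODE M21 (GRCm38). The fragment step was read from the low values of genes with a single transcript, within a range of steps fixed beforehand. With a tolerance of 0.1 of a halved step, between 72.5% and 77.4% of these values lay on whole or halved steps. No intervals were computed from the step. The named genes are the 7, 22 fixed pathway genes, up to 2 more per list with the smallest p, the 5 closest in pattern to Mapt and to Thy1, and their neighbours; a gene and some sequences are not reported here. Stretches of values for Phyhip, Extl3, Agap2, Gm9493, Camsap2, Katna1 and Spast were chosen for printing after they were seen. The genes and lists were chosen with earlier results of these data known. Alternatives were other pseudocounts, filters, scalings, a replicate block, library weights, separate ages, leaving out each library, and removal of the length trend, the last chosen after seeing the data. Labels do not say more of the 3 animals per group than that they are biological replicates.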

Additional observations from a re-analysis of the deposited data

How the results depend on the processing

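For the 7 genes, 30 differences were recomputed under 10 or 11 alternatives and with each library left out; 16 kept their direction throughout. The number of the 7 past the threshold stayed 0, except for the 3-month genotype effect, where it was 1 (Thy1, log2 difference 1.83) with only the 6 libraries of that age, and 0 to 1 with libraries left out, the 1 being without the 10-month control 2 library. With a library left out, Thy1 at 3 months ranged from 1.74 to 1.95, Mapt at 10 months from -1.18 to 0.64 and Thy1 at 10 months from -0.69 to 0.04. Library weights gave 0.67 for Mapt at 10 months, 0.21 for Map1b with age in controls (-0.04 before) and 4e-04 for Map2 with age in transgenics (-0.36 before); the cause was not tested. Map1a with age in controls (0.04) became -0.015 with size factors and -0.095 with the length trend removed. With libraries left out the ranges that crossed 0 were, for genotype at 10 months, Map1a -0.95 to 0.088, Map1b -1.32 to 0.33 and Map4 -0.42 to 0.056, and for genotype at 3 months Map2 -0.92 to 0.014. For age in controls they were Map1a -0.029 to 0.12, Map1b -0.44 to 0.75, Map4 -0.044 to 0.45 and Map6 -0.013 to 0.32, and for age in transgenics Map1a -0.79 to 0.25, Map1b -0.40 to 0.97, Map2 -1.09 to 0.52 and Map6 -0.27 to 0.49. The signs turned in controls without 3-month control 3 (Map1a, Map1b), 10-month control 1 (Map1b, Map6) or 10-month control 2 (Map1a, Map4), and in transgenics without 3-month transgenic 1 (Map1b, Map6) or 3 (Map2), or 10-month transgenic 1 or 2 (Map1b, Map6) or 3 (Map1a, Map2). With the length trend removed, the 3-month genotype differences of the 5 microtubule-associated protein genes were between -0.67 and -0.11 and the 10-month ones between -1.02 and -0.13. With libraries left out, age in controls ranged from 0.03 to 1.22 for Mapt and 0.26 to 0.99 for Thy1, and age in transgenics from -2.82 to -0.998 for Mapt. With the replicate number as a block, Thy1 at 3 months was 1.83 (limma adjusted p = 0.638) and 0 of the 7 genes passed in any comparison. Same-numbered libraries had correlations of deviations from -0.123 to 0.094, and differently numbered ones from -0.135 to 0.151. With 3 libraries per group these cannot exclude a pairing, so whether the numbers pair the samples is not known. Over all alternatives the count of all genes past the threshold ranged from 2 to 14 (4 in the fit reported) at 3 months, 0 to 8 (1) at 10 months, 1 to 11 (5) for the interaction, and 0 to 10 (3) and 2 to 13 (2) for age in controls and transgenics; with the block they were 4, 0, 1, 3 and 2. The number of libraries, 3 per group, limits these comparisons, and the depth of the libraries was not measured.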

Other observations

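Among the tau-related genes, several were at widely different levels in libraries of the same group. Cdk5, a kinase that neurons express and that phosphorylates tau, was listed at 0 in 9 of 12 libraries and at most at 0.0466 FPKM in the others, while its activator Cdk5r1 was at 2.63 FPKM in the 3-month transgenic 2 library, 1.87 FPKM in the 10-month transgenic 2 library and 27.2 to 59.1 FPKM in the remaining 10, so that both low values carry the transgenic label. Stub1, a ubiquitin ligase for tau, was at 79.9 and 15 FPKM in the 10-month control 1 and 2 libraries and between 0 and 2.12 FPKM in the other 10 (10-month log2 difference -5.24, SE 1.89, unadjusted p = 0.0198 and limma adjusted p = 0.969, a size set by the pseudocount where libraries are listed at 0). Tppp, a microtubule-bundling protein of oligodendrocytes, ranged from 2.79 to 87.9 FPKM, with the highest values in the 10-month control 2, 3-month transgenic 2 and 3-month control 1 libraries. All are among the pathway genes fixed by name, and these values were picked for printing after they were seen.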
